A study of Mus musculus with 4 samples.

Results

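The regions described here are stretches of accessible chromatin that were listed in mouse embryonic stem cells (ESC) and in none of 3 related populations. They were chosen by pooling the peaks of 4 ATAC-seq lists on chromosomes 1 to 19, joining peaks separated by at most 10 bp, and keeping the joined regions that held an ESC peak and no peak of the other lists. Of 168348 joined regions, 67617 held an ESC peak, and 11665 of these held an ESC peak alone, which is 17.3% (95% Wilson interval 17.0 to 17.5). ATAC-seq uses a transposase that inserts sequencing adapters into open DNA, so that a peak marks accessible chromatin. The series followed fibroblasts that were taken through an early stage of conversion to neural stem cells, and set them beside fibroblasts and pluripotent cells. Each population had 1 library of 50000 cells.

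The ESC were of the v6.5 line, and their labels give no transgene, treatment or culture medium. Mouse embryonic fibroblasts (MEF) and induced pluripotent stem cells (iPSC) both carried the strain label A12 (Mbd3 flox/-). The sorted population, called the intermediate here, came from B6/129 fibroblasts with a Col1a-OSKM transgene, which encodes the reprogramming factors Oct4, Sox2, Klf4 and Myc, and a Rosa26-TdTomato reporter. These fibroblasts also carried a Nanog-CreER transgene, which puts a tamoxifen-dependent Cre under Nanog control, and they were treated with doxycycline, 4-hydroxytamoxifen and 0.5 µM of a JAK1 inhibitor over days 1 to 9. The tdTomato-positive cells were sorted; the sample title gives day 9 and the source field day 6. The strain labels of ESC differ from those of all 3 other populations, so cell state and strain cannot be told apart in any value below. The labels give no ages and no numbers of animals.

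Embryonic stem cells are derived from the inner cell mass of the blastocyst and can form all tissues of the embryo. Their open chromatin comprises promoters, many of which lie in CpG islands, and distal elements bound by factors such as Oct4, Sox2 and Nanog. CpG islands are stretches rich in the dinucleotide CG that mostly escape DNA methylation, and in stem cells many islands at developmental genes are bound by Polycomb repressors while those of germ-cell genes can be silenced by methylation.

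The lists were checked against marker genes, counting a gene as marked when a peak lay within 1 kb of either end. Of 30 pluripotency genes, 26 were marked in ESC, 28 in iPSC, 21 in the intermediate and 12 in MEF. Of 32 fibroblast genes, 24 were marked in ESC, 19 in iPSC, 19 in the intermediate and 30 in MEF. Myeloid genes were marked in 2 of 7 cases in ESC and endothelial genes in 3 of 7. No ESC peak was listed at Pou5f1, the gene for Oct4, where the iPSC list held a single joined stretch of 17700 bp with a height of 1330. No library had a replicate, so no difference between populations could be tested, and the Wilson intervals cover counting error only.

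The promoters among the regions are shown first, because their sequence was not used in choosing them. Each line gives 300 bases of RefSeq GRCm38.p6, the assembly named mm10 in genome browsers, from 250 bases before to 50 after an annotated start, 5′ to 3′ on the gene's strand with every CG in capitals. Hormad1 and Sycp1 encode proteins of the meiotic chromosome axis and the synaptonemal complex. Wnt3a encodes a Wnt ligand and Otx2 a homeodomain factor of the epiblast and anterior brain. Tcf19 and the long non-coding RNA gene Platr6 were picked after their values were seen, as the CpG-rich and the CpG-poor promoter with the tallest ESC peaks. The windows are chr3:95559427-95559726 (Hormad1, plus strand), chr3:102936051-102936350 (Sycp1, minus), chr11:59290702-59291001 (Wnt3a, minus), chr14:48665060-48665359 (Otx2, minus), chr17:35516775-35517074 (Tcf19, minus) and chr10:21845984-21846283 (Platr6, minus).
Hormad1: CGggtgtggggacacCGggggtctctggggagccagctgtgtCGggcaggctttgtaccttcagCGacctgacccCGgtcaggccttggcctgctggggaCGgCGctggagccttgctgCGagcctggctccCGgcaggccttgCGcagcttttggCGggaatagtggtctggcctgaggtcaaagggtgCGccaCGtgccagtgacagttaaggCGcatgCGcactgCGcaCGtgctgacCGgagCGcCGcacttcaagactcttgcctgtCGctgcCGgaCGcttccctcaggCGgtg
Sycp1: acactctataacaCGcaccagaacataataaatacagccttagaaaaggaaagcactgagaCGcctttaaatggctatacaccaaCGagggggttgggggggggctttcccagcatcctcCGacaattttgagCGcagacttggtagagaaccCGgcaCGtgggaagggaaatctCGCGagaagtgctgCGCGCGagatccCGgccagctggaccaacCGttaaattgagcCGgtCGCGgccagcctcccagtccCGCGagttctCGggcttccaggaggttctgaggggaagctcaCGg
Wnt3a: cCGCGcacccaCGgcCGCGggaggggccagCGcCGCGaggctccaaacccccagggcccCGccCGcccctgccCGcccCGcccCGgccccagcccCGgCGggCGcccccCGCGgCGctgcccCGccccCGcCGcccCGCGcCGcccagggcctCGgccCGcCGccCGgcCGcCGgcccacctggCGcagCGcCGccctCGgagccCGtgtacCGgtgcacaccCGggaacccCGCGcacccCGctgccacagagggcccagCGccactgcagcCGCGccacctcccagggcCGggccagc
Otx2: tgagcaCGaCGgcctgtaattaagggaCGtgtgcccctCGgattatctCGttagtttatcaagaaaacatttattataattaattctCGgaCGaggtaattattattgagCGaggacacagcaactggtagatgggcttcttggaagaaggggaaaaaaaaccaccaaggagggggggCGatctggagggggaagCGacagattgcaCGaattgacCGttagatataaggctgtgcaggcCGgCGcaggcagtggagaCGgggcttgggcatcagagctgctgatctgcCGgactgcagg
Tcf19: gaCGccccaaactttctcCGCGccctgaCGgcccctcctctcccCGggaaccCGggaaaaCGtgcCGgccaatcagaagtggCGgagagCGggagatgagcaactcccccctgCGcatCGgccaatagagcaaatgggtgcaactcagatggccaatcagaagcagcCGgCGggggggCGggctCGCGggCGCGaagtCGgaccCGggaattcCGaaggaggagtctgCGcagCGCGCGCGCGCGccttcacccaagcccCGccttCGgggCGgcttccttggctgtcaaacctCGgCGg
Platr6: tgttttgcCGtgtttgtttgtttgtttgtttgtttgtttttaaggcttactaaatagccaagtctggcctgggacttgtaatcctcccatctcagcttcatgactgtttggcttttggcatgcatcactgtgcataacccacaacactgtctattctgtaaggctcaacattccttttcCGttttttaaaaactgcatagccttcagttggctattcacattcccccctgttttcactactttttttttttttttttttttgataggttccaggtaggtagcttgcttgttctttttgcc

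These windows held 24 CG dinucleotides at Hormad1, 21 at Sycp1, 45 at Wnt3a, 16 at Otx2, 34 at Tcf19 and 2 at Platr6. The height of a peak is a whole number that the authors' processing wrote; it is unscaled, the depth behind it is unknown, and it is compared only within the ESC list. The ESC peak height was 30 at Hormad1, 44 at Sycp1, 45 at Wnt3a, 21 at Otx2, 181 at Tcf19 and 96 at Platr6. Over all ESC-alone regions the median height was 30 (interquartile range 26 to 38), so Sycp1, Wnt3a, Tcf19 and Platr6 were above that range and Otx2 below it. At Hormad1 the nearest region of any other list was 28111 bp away. At Sycp1 the nearest MEF, intermediate and iPSC regions were 33620, 14530 and 47250 bp away. At Otx2 regions of MEF and iPSC lay 531 bp away, and at Wnt3a a MEF region lay 621 bp away. The Otx2 start shown lies inside the gene rather than at its annotated end. Within 1 kb of the ends of Otx2, the ESC, iPSC and MEF lists held a peak, and no region there was ESC-alone. The Tcf19 region also covers the start of Cchcr1, which is read in the opposite direction, and lay 971 bp from the long iPSC stretch at Pou5f1.

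Promoters open in ESC alone were few, and more of them were rich in CpG than among promoters open in any other library alone. Of 31396 promoter windows, 15796 held an ESC peak, and 281 of these, from 253 genes, held an ESC peak alone, which is 1.78% (1.58 to 2.00). They lay in 245 of the 11665 regions (2.10%). Protein-coding genes had 184 of the windows and long non-coding RNA genes 97. Long non-coding RNA genes had 268 of 449 iPSC-alone, 203 of 384 intermediate-alone and 482 of 819 MEF-alone windows. The sets thus differ in gene type, and CpG content was not compared within a gene type. Peaks at these promoters had heights from 6 to 181, with a median of 32. The median window had 9 CG dinucleotides (interquartile range 5 to 18), against 5 for the 449 windows open in iPSC alone, 3 for the 384 of the intermediate alone and 4 for the 819 of MEF alone. At least 15 CG dinucleotides were found in 97 of the 281 windows, or 34.5% (29.2 to 40.3). The same held for 6.90% (4.91 to 9.63) of the iPSC-alone windows, 2.34% (1.24 to 4.39) of the intermediate-alone windows and 2.93% (1.98 to 4.32) of the MEF-alone windows. The 3 other intervals end below the lower bound for ESC. Some genes have several overlapping windows, as Hormad1 and Cntfr do, so these intervals understate the spread over genes. Windows shared by iPSC and ESC only had 15 or more in 31.6% (28.3 to 35.0), an interval that overlaps that of the ESC-alone windows, and the windows open in all 4 libraries in 75.4% (74.7 to 76.2). Over all promoter windows the share was 35.2% (34.7 to 35.7).

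**Figure D1:**
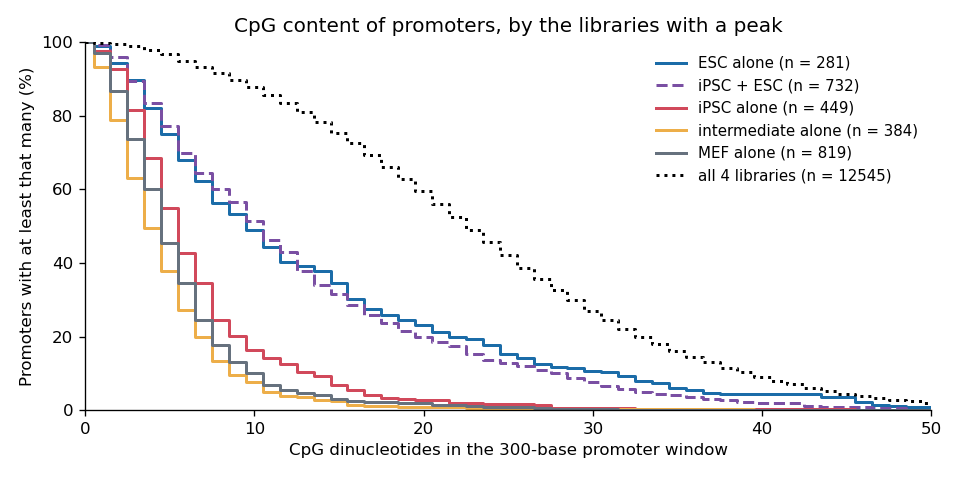
Percentage of promoter windows (y axis) that hold at least a given number of CG dinucleotides in 300 bases (x axis), with 1 line per set of libraries with a peak there. The line for ESC alone (n = 281) runs with that for iPSC and ESC (n = 732) and above those for iPSC, the intermediate and MEF alone. At 15 CG dinucleotides it stands at 34.5%, against 6.90%, 2.34% and 2.93%.

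The CpG-rich share was also high among promoters far from any other library's peaks. Among the 214 ESC-alone windows whose region lay farther than 1 kb from any other region, 80 had at least 15 CG dinucleotides, or 37.4% (31.2 to 44.0). Among the 67 windows of regions within 1 kb it was 17, or 25.4% (16.5 to 36.9). For iPSC-alone windows farther than 1 kb the share was 6.96% (4.76 to 10.1). Windows with ESC peaks of height 40 or more had a share of 41.2% (30.3 to 53.0), and those with lower peaks 32.4% (26.5 to 38.9), intervals that overlap.

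The genes at the CpG-rich ESC-alone promoters were named after their values were seen, and no enrichment was computed for the groups below. In the list of 14 germ-cell genes, 11 had a peak at an end in ESC and 11 in iPSC, and 2, Hormad1 and Sycp1, had an ESC-alone region there. Other genes of germ cells were picked from the 281 windows. Beside Hormad1 and Sycp1 these were Spata22, which acts in meiotic recombination, with a peak height of 45 and 25 CG dinucleotides, and Tex12, a synaptonemal complex protein, with a height of 30 and 26. Hsf5, a heat-shock factor family member, had a height of 39 and 34 CG dinucleotides, and Adad2, an RNA-binding protein gene of the testis, a height of 60 and 18. Figla, an oocyte transcription factor, had a height of 31 and 16 CG dinucleotides. Piwil1, a PIWI protein of the testis, had a height of 27 and 18. The nearest region of any other list was 1071 bp away at Spata22, 3461 bp at Tex12, 4681 bp at Hsf5, 5501 bp at Adad2, 10691 bp at Figla and 1431 bp at Piwil1. All 8 of these promoters were thus more than 1 kb from a peak of MEF, the intermediate or iPSC, as were 214 of all 281 ESC-alone windows (76.2%).

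Another group picked in the same way holds genes of the nervous system and of patterning. The separate neural gene list, described below, showed no excess: 18 of its 106 ESC regions (17.0%) were ESC-alone, against 16.6% over all genes. The region at Chat and Slc18a3, which encode the enzyme that makes acetylcholine and its vesicular transporter, had a height of 73, with 10 and 27 CG dinucleotides at the starts. Epha8, an ephrin receptor, had a height of 45 and 56 CG dinucleotides, and Mpped1 a height of 42 and 59. Oprd1 and Htr6, receptors for opioids and for serotonin, had heights of 35 and 34. Among homeobox and paired-box factors, Irx4 had a height of 38, Nkx1-1 a height of 33, Pax7 a height of 33, Uncx a height of 29 and Tlx1 a height of 28. Skor1, a transcriptional corepressor, had a height of 50 in 1 of its regions and 36 in another. The Chat and Slc18a3 region was the only 1 of these with a height above 50.

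Letters of 15 known motifs were counted on both strands of the promoter windows; a match is a description of the sequence and not a binding site. The palindromic motif of Nrf1, a regulator of genes with CpG-rich promoters, was found in 4.27% (2.46 to 7.31) of the ESC-alone windows, in 0.891% (0.347 to 2.27) of the iPSC-alone windows and in 4.68% of all windows. Hormad1 was among the genes with it, at position -36 from the start. The motif AAGGTCA of Esrrb and Nr5a2, orphan nuclear receptors of stem cells, was found in 4.27% (2.46 to 7.31) of the ESC-alone and 10.2% (7.77 to 13.4) of the iPSC-alone windows, against 4.69% of all windows. The Sox motif CATTGTT was found in 1.78% (0.762 to 4.10) and 5.12% (3.44 to 7.57), against 3.75% of all. The octamer ATGCAAAT, bound by Oct4, was found in 1.78% and 2.67%, against 1.75% of all, and the Klf motif GGGNGTGG in 21.7% and 17.4%, against 17.7% of all. The intervals of the ESC-alone and iPSC-alone windows overlap for the Sox motif and do not for the Nrf1 motif and AAGGTCA. Windows shared by iPSC and ESC only had the Nrf1 motif in 2.32% (1.45 to 3.69) and AAGGTCA in 4.64% (3.34 to 6.42). Both intervals overlap those of the ESC-alone windows. The ESC-alone and iPSC-alone windows also differ in gene type and in CpG content, as given above, and the letters of the Nrf1 motif hold CG. The CCAAT motif was found in 36.7% of the ESC-alone windows and 37.3% of all windows, with 3 copies at Tcf19 at positions -182, -129 and -98 from its start. The windows hold no sequence of distal regions, whose sequence was not used here.

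The median width of the ESC-alone regions was 620 bp (interquartile range 510 to 770) and they covered 7.56 Mb in all. The median was 650 bp (520 to 800) for iPSC-alone regions and 740 bp for both intermediate-alone and MEF-alone regions. ESC regions shared with iPSC only had a median of 940 bp. Shared regions span the joined peaks of several lists, so the joining itself makes them wider. The median peak height over the whole ESC list was 31. The median height of the tallest ESC peak was 30 (26 to 38) in the ESC-alone regions, and, in regions that were wider, it was 40 in the 16978 regions shared with iPSC only, 56 in the 9900 shared with the intermediate and iPSC, and 92 in the 17618 open in all 4 lists. Of the 11665 regions, 8012 (68.7%) held a single ESC peak, 2908 (24.9%) held 2, and 1 held 14. Heights of 20 to 39 were found in 8474 of them, heights of 100 or more in 70 and heights of 200 or more in 14. A further 677 had heights under 20, with a median width of 211 bp, and these made up 85.1% of the 796 ESC regions of that height. With the ESC regions put in 4 groups of nearly equal size by height, the ESC-alone share was 38.1%, 21.0%, 8.55% and 1.31% from the lowest group to the highest.

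**Figure D2:**
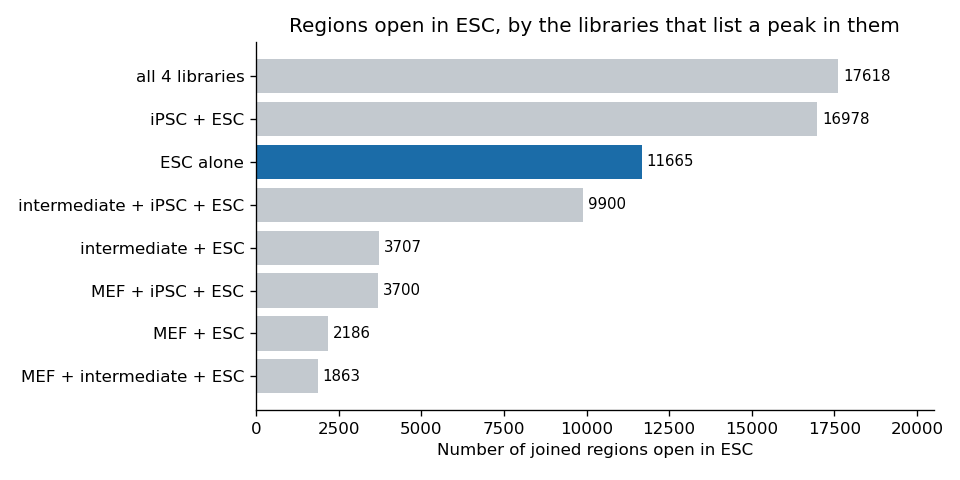
Number of joined regions open in ESC (x axis), by the set of libraries that list a peak in them (y axis). The 11665 ESC-alone regions are fewer than the 16978 shared with iPSC only and more than the 9900 shared with iPSC and the intermediate.

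**Figure D3:**
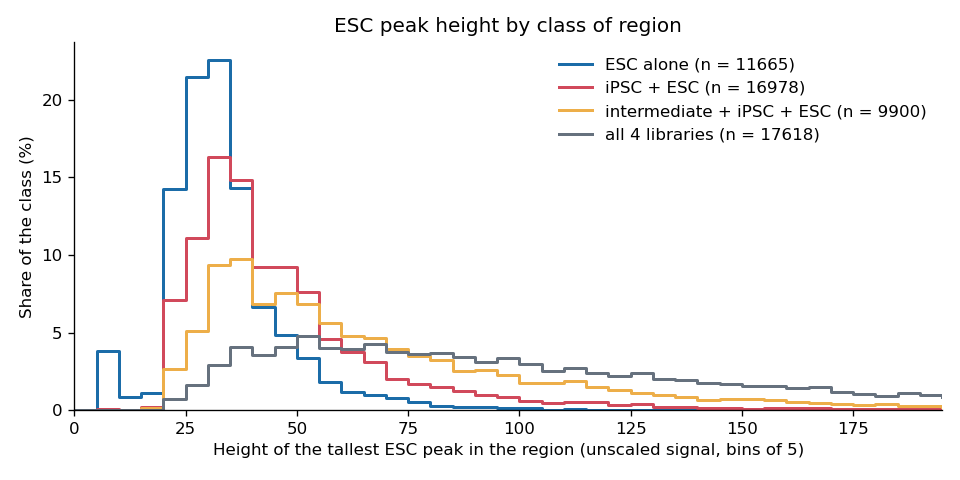
Share of each class of regions in % (y axis) by the unscaled height of its tallest ESC peak in bins of 5 (x axis, ending short of 200). The ESC-alone line peaks between 25 and 35, and the small step at heights under 10 is found for ESC-alone regions.

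Regions of another list were often near. The median distance from an ESC-alone region to the nearest region of any other list was 3911 bp. Within 1 kb lay 2560 of them (21.9%, 21.2 to 22.7) and within 100 bp 656 (5.62%). The same share within 1 kb was 17.2% for iPSC-alone, 19.8% for intermediate-alone and 15.6% for MEF-alone regions. The nearest iPSC region was within 1 kb of 14.4% of the ESC-alone regions, the nearest intermediate region of 11.3% and the nearest MEF region of 9.66%. At the border of the rule, 58 ESC stretches lay 1 to 10 bp from another list's peak and were joined to it, with a median height of 11.5. The 118 regions at 11 to 30 bp, just kept, had a median height of 12. Each other list also had regions of its own: 29.5% of iPSC regions, 37.5% of intermediate regions and 56.9% of MEF regions were in no other list, against 17.3% for ESC, with lists of 125858 peaks in ESC to 155064 in MEF.

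Most ESC-alone regions were distal, and they lay in gene-richer surroundings than those shared with iPSC only, as did intermediate-alone and MEF-alone regions. Within 1 kb of a gene end lay 768 (6.58%, 6.15 to 7.05), against 5.40% (5.07 to 5.75) of the regions shared with iPSC only, 3.76% (3.52 to 4.01) of the iPSC-alone regions and 58.8% of those open in all 4 lists. The share was 5.22% (4.95 to 5.50) for intermediate-alone and 4.63% (4.44 to 4.84) for MEF-alone regions. At annotated start sites the order of ESC-alone regions and those shared with iPSC only was the opposite. There, 4.29% (3.93 to 4.67) of the ESC-alone regions lay within 1 kb, against 4.84% (4.52 to 5.17) of those shared with iPSC only. Inside genes, beyond 1 kb of an end, lay 4628 (39.7%), and between genes 6269 (53.7%). Farther than 100 kb from any gene lay 1980 (17.0%), against 25.6% of those shared with iPSC only. The median number of coding genes centred within 500 kb was 8, against 5 for those shared with iPSC only. It was 6 for iPSC-alone regions and also 8 for intermediate-alone and for MEF-alone regions. The median distance to a gene end was 23.0 kb, against 45.0 kb for those shared with iPSC only and 38.0 kb for iPSC-alone regions. For intermediate-alone and MEF-alone regions it was 24.2 and 28.5 kb. Peaks at gene ends and away from them had the same median height of 30. Of the ESC-alone regions, 20.4% (19.7 to 21.2) had another within 10 kb, against 29.2% among iPSC-alone and 53.9% among MEF-alone regions.

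The share of ESC regions that were ESC-alone was highest where genes were absent. It was 23.3% (21.8 to 24.8) where no coding gene was centred within 500 kb, 18.3% with 1 to 5 such genes, 16.2% with 6 to 15, 16.8% with 16 to 30 and 16.1% (15.2 to 17.0) with more than 30. The iPSC-alone share of iPSC regions over the same bins went from 39.7% to 11.3% and the MEF-alone share of MEF regions from 84.7% to 36.5%. Only above 30 genes was the ESC-alone share higher than the iPSC-alone share. By chromosome the ESC-alone share ranged from 14.4% (13.4 to 15.6) on chromosome 3 to 21.5% (19.7 to 23.4) on chromosome 19.

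**Figure D4:**
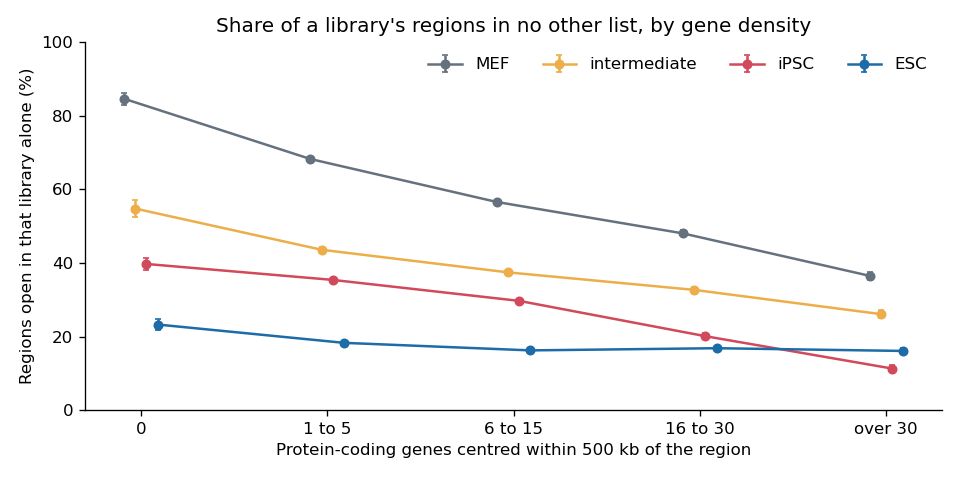
Share of each library's regions that are in no other list, in % (y axis, with Wilson 95% intervals), by the number of protein-coding genes centred within 500 kb (x axis). The ESC points run from 23.3% to 16.1% and the iPSC points from 39.7% to 11.3%.

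The 15 tallest ESC-alone regions had heights from 184 to 791 and a median width of 720 bp. The tallest, at chr14:69161671-69162620, had a height of 791 and lay 9.18 kb from Nkx2-6, a homeobox gene. A pair at chr2:181918261-181919371 and chr2:181917211-181918231, near the gene Gm40035, had heights of 617 and 231. A peak of 470 bp inside Lrp1b, an LDL-receptor relative, had a height of 479, and its nearest region of any other list was 101811 bp away. Others of the 15 tallest lay nearest to Fam241a (518), Mkx (421), Ppp2r2b (404), Zfp978 (367), Jam3 (347), Olfr806 (338), Trhde (329), Tmem267 (307) and Lcorl (283), with the height in parentheses. The regions nearest to Lcorl and Fam241a lay 578 and 314 kb from these genes, beyond the 100 kb used below to assign regions. Those nearest to Jam3, Mkx and Zfp978 lay 57.6, 28.8 and 24.2 kb away. How reads that fit several places were handled is not stated. None of the 15 lay within 1 kb of a gene end, 5 lay in a gene, 8 held a single peak and the others from 2 to 14, and 14 were farther than 1 kb from every other region. The widest region, at chr13:119596171-119603750 in Tmem267, spanned 7580 bp and held 14 peaks. The next widest, at Plec, Tuba1a, Mylpf and Gm32719, spanned 2860, 2600, 2250 and 2240 bp.

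The coding genes with the most ESC-alone regions were long, and Tmem132d and Tmem132c on chromosome 5 were among them. Regions were assigned to the nearest gene within 100 kb; 9685 were assigned to 6113 genes, 4012 of which had 1 and 160 at least 5. Over all genes, 16.6% of the assigned ESC regions were ESC-alone. Tmem132d, Tmem132c and Tmem132b encode single-pass membrane proteins of a family expressed in the nervous system. Tmem132d had 15 ESC-alone regions of 21 ESC regions, with heights from 25 to 59 and a median of 32. Tmem132c had 11 of 20, with heights from 9 to 52, and Tmem132b 8 of 13, with heights from 6 to 62. Of the ESC regions assigned to these 3 genes, 34 of 54 were ESC-alone (63.0%, 49.6 to 74.6), beside 7 of 22 iPSC regions in iPSC alone. The MEF and intermediate lists had 13 and 25 regions assigned to them, 7 and 12 of them alone. With assignment only within 20 kb of a gene, Tmem132c had 5 ESC-alone regions, Tmem132d 10 and Tmem132b 8. Of the family members on other chromosomes, Tmem132a had 0 of 2 and Tmem132e 1 of 3. Of the 1-Mb windows with at least 20 ESC regions, those from 126 to 127 and 127 to 128 Mb on chromosome 5 had the highest shares, with 15 of 25 and 19 of 36. Over both windows 34 of 61 ESC regions were ESC-alone (55.7%, 43.3 to 67.5), whichever gene they were nearest to. These windows were picked by this share from 1635, with a median share of 16%. The 3 genes were likewise picked by their ESC-alone counts or shares. The intervals for the windows and the genes do not allow for this choice.

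The other 13 of the 15 genes with the most ESC-alone regions had 9 to 12 each. Ptprg, a receptor phosphatase, had 12 of 27, and Ptprd, a synaptic receptor phosphatase, 10 of 31. Auts2, a neurodevelopmental gene, had 11 of 36, and Dlg2, a postsynaptic scaffold, 11 of 35. Magi2, another scaffold, had 11 of 44, and Fry 11 of 24. Cntnap2, a neurexin relative, had 10 of 33, Sdk1, a synaptic adhesion molecule, 10 of 17, and Epb41l4a 10 of 25. Adgrl3, an adhesion receptor, had 9 of 24, Atg7, an autophagy enzyme, 9 of 17, Ctnna3, a catenin, 9 of 29 and Etl4 9 of 39. These 13 genes spanned 211 to 2271 kb. Regions alone in another list were as many or more at several of them, with 17 in iPSC alone at Ctnna3, 16 in iPSC alone at Magi2, 40 in MEF alone at Dlg2 and 35 in MEF alone at Auts2. With assignment only within 20 kb, Atg7 had 2 ESC-alone regions. Among coding genes with at least 10 ESC regions the highest shares also included Hs3st4 (7 of 10), Col14a1 (6 of 10), Tmc1 (6 of 10), Kdm2b (7 of 12), Pced1b (7 of 12) and Cntn1 (6 of 11, with 3 ESC-alone within 20 kb). Of their MEF regions, 5 of 6, 9 of 10, 6 of 8, 2 of 6, 6 of 8 and 4 of 6 were MEF-alone, in the same order. Over all MEF regions the MEF-alone share was 56.9%. Of their iPSC regions, 0 of 4, 4 of 8, 2 of 5, 2 of 6, 4 of 8 and 3 of 8 were iPSC-alone.

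Among 21 gene lists the Polycomb list holds subunits of the repressive Polycomb complexes and their partners. It had 24 ESC-alone of 77 ESC regions, or 31.2% (21.9 to 42.2), against 16.6% (16.3 to 16.9) over all genes. These 24 regions lay at only 5 of its 13 genes, with 7 of them at Kdm2b. The housekeeping list had 1 of 37, or 2.70% (0.479 to 13.8). The pluripotency list had 37 of 210 (17.6%, 13.1 to 23.3), close to the share over all genes, and the fibroblast list 21 of 130 (16.2%, 10.8 to 23.4). Genes of the primed and formative states had 25 of 99 (25.3%, 17.7 to 34.6), FGF and ERK signalling genes 26 of 107 (24.3%, 17.2 to 33.2), Hox genes 17 of 63 (27.0%, 17.6 to 39.0) and endothelial genes 10 of 30 (33.3%, 19.2 to 51.2). LIF, JAK and STAT genes had 5 of 65 (7.69%, 3.33 to 16.8), germ-cell genes 9 of 38 (23.7%, 13.0 to 39.2) and imprinted genes 14 of 86 (16.3%). The neural list had 18 of 106 (17.0%) and the mesendoderm list 7 of 56 (12.5%), and the intervals of both hold the 16.6%. Regions of 1 gene share their locus, so the intervals understate the spread over genes. Assigning regions only within 20 kb gave 21 of 66 for the Polycomb list (31.8%, 21.8 to 43.8) against 15.9% over all genes. The primed and formative list then had 19 of 80 (23.8%, 15.8 to 34.1), the FGF and ERK list 15 of 75 (20%, 12.5 to 30.4) and the Hox list 12 of 56 (21.4%, 12.7 to 33.8), intervals that hold the 15.9%. The endothelial list had 7 of 22 (31.8%, 16.4 to 52.7).

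**Figure D5:**
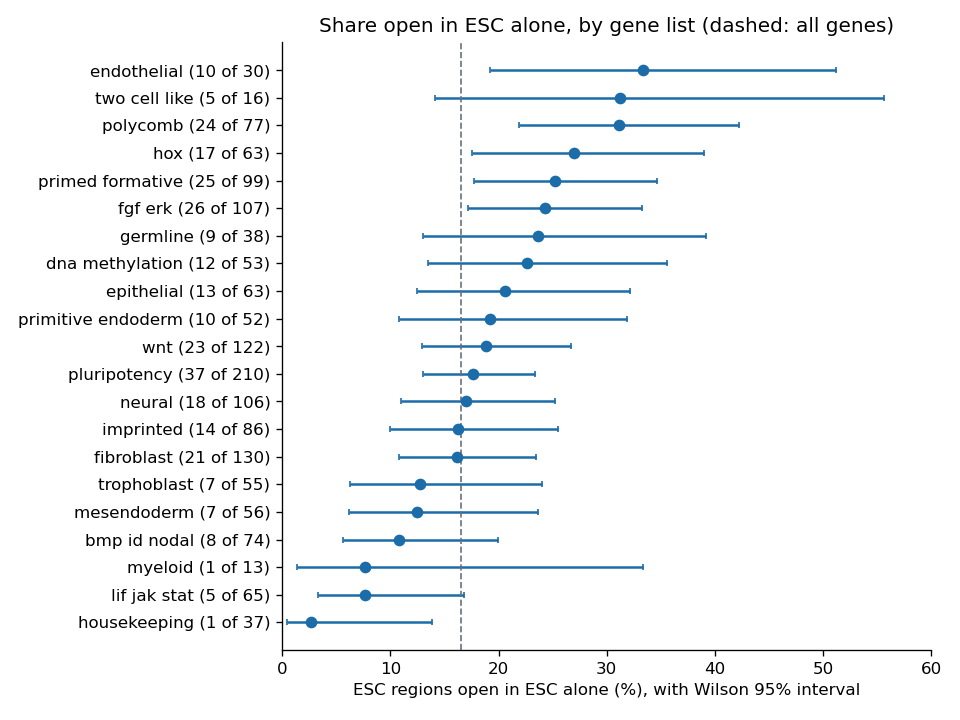
Share of the ESC regions of each gene list that were ESC-alone, in % (x axis, points with Wilson 95% intervals), with the number of regions beside each list's name; the dashed line is the 16.6% over all genes. The intervals of the endothelial, Polycomb, Hox, primed and formative, and FGF and ERK lists lie above the line, and that of the housekeeping list lies below it.

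Within the Polycomb list, Kdm2b carried 7 of the 24 regions. Kdm2b encodes the CXXC protein that brings a Polycomb complex to unmethylated CpG islands. Its 7 regions, all but 1 inside the gene, had heights of 24, 59, 38, 5, 33, 29 and 26. Those of height 5 and 33 lay less than 100 bp apart and were counted separately. The Kdm2b locus had 12 regions in ESC, 6 in iPSC, 6 in MEF and 2 in the intermediate. Dnmt3b, the de novo DNA methyltransferase of the epiblast, had 5 ESC-alone of 6 ESC regions, at heights of 27, 74, 45, 17 and 32. Those of height 45 and 17 also lay less than 100 bp apart and were counted separately. The tallest ESC-alone region at Dnmt3b, at chr2:153642811-153643890, lay 5.52 kb from the gene, and 3 of the 5 lay inside it. The iPSC list held 4 regions at Dnmt3b, the MEF list 2 and the intermediate list 2.

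Of 30 pluripotency genes, 19 had at least 1 ESC-alone region, with a share for the list near that over all genes, as given above. Zfp42, which encodes the stem-cell marker Rex1, had 5 of 13, with heights of 27, 29, 36, 93 and 39. The 1 of height 93 lay 24.5 kb from the gene and 1011 bp from an iPSC region, and 3 of the 5 were within 20 kb. The iPSC list held 14 regions at Zfp42, and 5 of these were likewise in iPSC alone. The intermediate list held 3 regions there and the MEF list 1. At a gene end, Dppa3, a maternal-effect gene expressed in germ cells and naive cells, had a peak of height 27 that lay 411 bp from an iPSC region. Tet1, which oxidises methylated cytosine, had a region at a gene end of height 27, and its tallest ESC-alone region, of height 55, lay 15.2 kb away. Klf2, a naive-state factor, had a region of height 22 lying 151 bp from regions of the other lists. From the FGF and ERK list, Etv5, an ETS factor downstream of FGF signalling, had 4 of 14, the tallest of height 62 inside the gene.

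At 5 of 320 listed genes an ESC peak lay within 1 kb of an end and no other library had a peak there. The same count was 7 for iPSC, 3 for the intermediate and 11 for MEF. Mixl1, a homeobox gene of the primitive streak, had a peak of height 51 at chr1:180696301-180697520, 27851 bp from any other region. Tfap2c, a factor of trophoblast and primordial germ cells, had its taller peak, of height 72, 1471 bp from the regions of the other lists. The others were Sycp1, Hoxc11, with a height of 39 at its tallest, and Hoxc8, with a height of 27. At Hoxc8 the nearest MEF region was 6701 bp away and the nearest iPSC and intermediate regions 7571 bp. In 19 further listed genes an ESC-alone region lay within 1 kb of an end where another library also had a peak; among these, Gata3, a trophoblast factor, had the tallest, at 93. Olig2 and Pax6, factors of neural progenitors, had heights of 20 and 24, with regions of iPSC and the intermediate 101 and 31 bp away.

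Of 919 miRNA hairpins in RefSeq, 155 shared at least 1 base with an ESC region and 5 with an ESC-alone region. The 5 of 155 are a lower share than the 17.3% of all ESC regions that were ESC-alone. Of these 5, 3 lay wholly or partly in 1 region of height 36 at chr12:109594611-109595350. It is within the imprinted Dlk1 to Dio3 domain, where 4 of 16 ESC regions were ESC-alone (25.0%, 10.2 to 49.5). Mir136 and Mir3071 are read from opposite strands of the same hairpin locus, and the nearest iPSC region was 4541 bp away. Mir202, a miRNA gene known for expression in the gonads, lay at a region of height 21, chr7:139957721-139958370, 5041 bp from any other region. The mature sequences of these 4 genes follow, with the seed, bases 2 to 8, in capitals. No 2 share a seed. Those of miR-136-3p, miR-3071-5p and miR-202-3p lie outside the ESC-alone regions. Mir3100, the fifth, lay 11 bp from regions of all 3 other lists.
miR-432: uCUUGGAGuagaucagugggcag
miR-136-5p: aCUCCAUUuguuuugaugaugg
miR-136-3p: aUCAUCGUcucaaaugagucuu
miR-3071-5p: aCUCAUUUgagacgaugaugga
miR-3071-3p: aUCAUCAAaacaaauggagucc
miR-202-5p: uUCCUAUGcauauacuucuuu
miR-202-3p: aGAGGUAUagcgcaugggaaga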

How the data were processed

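ATAC-seq of MEF, the intermediate, iPSC and ESC was deposited as 1 peak list per library. Per the submitters' processing notes, the tools included MACS 1.4.2-1, Picard, Bowtie2 and CASAVA 1.8.2 and the build was mm10; their roles and settings were not stated. The deposited height of each peak is a whole-number signal, per the file headers, with a minimum of 5; nothing scales it, and read depth is unknown. The design had assumed a score, for which the height stood in. Absence from a list means only that no peak was listed, and how the authors divided stretches into peaks affects every count.

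Peaks on 19 autosomes were joined across gaps of up to 10 bp. Genes, starts and sequences came from RefSeq GRCm38.p6; 320 of 324 listed genes matched. The gene table has no strand, so both gene ends were used. No peak list was tested against another, since each population has 1 library; shares carry Wilson 95% intervals. The steps were tested on simulated data and run in Python 3.11.15 with pandas 2.3.3, numpy 2.4.6 and scipy 1.17.1.

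The members and gene lists were chosen with earlier results of these data known. Named genes were the nearest to the 15 tallest and 5 widest regions, the 15 coding genes with most regions, the 10 with the highest share among those with at least 10 ESC regions, list members with an ESC-alone region within 1 kb of an end or the most in their list, and the 3 top 1-Mb windows with at least 20 ESC regions. Some of these genes are not reported here. Alternatives changed the joining gap, the peaks kept, the overlap and the gene distances. No paired analysis was possible because each group has 1 library.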

Additional observations from a re-analysis of the deposited data

Results flagged for a closer look

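The sex chromosomes were outside the 19 autosomes described above and held signal of the same kind. On chromosome X, 357 of 2108 ESC regions were ESC-alone (16.9%, 15.4 to 18.6), with a median height of 30. On chromosome Y, 59 of 222 ESC regions were ESC-alone (26.6%, 21.2 to 32.8), with a median height of 29. The other lists held 14 (MEF), 24 (intermediate) and 373 (iPSC) regions on chromosome Y.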

How the results depend on the processing

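Joining only peaks that share a base gave 20324 ESC-alone regions, 26.2% of ESC regions, with 8.67% of them at a gene end. Joining across 100 bp gave 16.2%, and across 500 bp 15.1%, with 5.58% at a gene end. The taller 50% of each list gave 17.8% and 7.78%. Leaving out ESC peaks under the median height gave 5906 regions, 11.2% and 6.11%. Peaks of 500 bp at the summit gave 17.6% and 8.50%. Single ESC peaks with a 50% overlap gave 25339, 20.1% and 10.6%. A gene-end window of 2.5 kb gave 13.1%. Alternatives chosen after seeing the data gave 13.5% and 5.36% for regions farther than 1 kb from all others, 4.29% at start sites, and 12022, 17.2% and 6.55% with chromosome X. Equal list lengths gave 11754, 17.3% and 6.77%. The cause of these shifts was not tested. Counts per list stayed within 1.5 times the main count for 0 of 21 lists with shared bases and 16 of 21 with 20 kb, and counts per named gene for 34 and 54 of 72. The Polycomb share was 46.0% (36.6 to 55.7) with shared bases, against 25.6% over all genes. Precision is limited by 1 library per population, by unknown read depth and by the division of stretches into peaks.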

Other observations

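The third of the 1-Mb windows with the highest ESC-alone share lay from 60 to 61 Mb on chromosome 4. There, 13 of 25 ESC regions were ESC-alone (52.0%, 33.5 to 70.0), an interval that does not allow for picking the window by this share. These 13 regions were nearest to 8 genes of the major urinary protein family, secreted liver proteins that carry pheromones: Mup10 had 3, Mup1, Mup2 and Mup8 had 2 each, and Mup11, Mup12, Mup6 and Mup9 had 1 each. The genes of this family are near-identical copies, and how reads that fit several copies were placed is not stated, so the assignment to single members is uncertain.

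Zscan4f, a member of a multi-copy gene family expressed in cleavage-stage embryos and in a few stem cells, had 3 ESC-alone of 5 ESC regions. The tallest, of height 68, lay 61.2 kb from the gene. Within 20 kb of the gene there was 1. The list of cleavage-stage genes had 5 of 16 (31.3%, 14.2 to 55.6), an interval that holds the 16.6% over all genes. Snrpn, an imprinted gene, had 6 of 18, and the MEF list held 2 regions there, the intermediate list 9 and the iPSC list 13.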
